A study of Mus musculus with 6 samples.

Results

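Stefins and cystatins are inhibitors of cysteine proteases, and 7 mouse genes of this kind were followed here in the skin of LynDN transgenic and wild-type (WT) mice. The members were chosen by name with the LynDN to WT ratios of these same arrays already known, so their ratios are given as a description and support nothing by themselves. Of the 7 listed genes, 5 were measured, each by 1 probe, among 18617 named genes: the stefin A genes Stfa2l1 and Stfa3, stefin B (Cstb), cystatin C (Cst3) and cystatin M/E (Cst6). Stfa1 and Stfa2 were not analysed here. The transcript accession of each of the 5 probes matched the RefSeq entry of its gene.

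Total RNA of whole skin from 3 LynDN mice and 3 WT mice was compared on 2-colour arrays, 6 in all. LynDN mouse 1 was hybridised with WT mouse 1 (pair 1), LynDN mouse 2 with WT mouse 3 (pair 2) and LynDN mouse 3 with WT mouse 2 (pair 3), each pair on 1 array with LynDN in Cy3 and on 1 with LynDN in Cy5. Lyn belongs to the Src tyrosine kinases, and the transgene called LynDN in the labels is written LynDeltaN in the title. The sources used here give no strain, age, sex or transgene promoter. No probe was named Lyn (0 probes), so the transgene could not be checked. Values are log ratios of the 2 channels, read as log2, with a sign shared by the arrays of a dye swap. Which genotype is the numerator is not stated, so the sign says only on which side of 0 a gene lies. The alarmin genes S100a9 and S100a8 marked the positive side, with mean log2 ratios of 5.54 ± 0.16 and 4.61 ± 0.12 (SD, n = 3 pairs). Each pair value is the mean of its 2 arrays. The files hold ratios and no levels, so the tissue could not be checked against its defining markers.

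Pair 1 stood apart from the others. Across rows its ratios correlated with those of pairs 2 and 3 at r = 0.350 and 0.386, against 0.745 between pairs 2 and 3, where rows share arrays and are not independent. The Y-linked gene Eif2s3y had a log2 ratio of 3.50 in pair 1 and of at most 0.03 in the others. A further Y-linked gene, Kdm5d, reached 1.24 in pair 1, against -0.05 in pair 2 and 0.13 in pair 3. Xist, an X-linked transcript of female cells, lay on the negative side in pair 1 (-1.06) and nearer to no difference in pairs 2 (-0.09) and 3 (-0.14). Whether the mice of pair 1 differ in sex was not tested, nor was the part of sex in any ratio of pair 1. The dye-swap arrays of pair 1 correlated with each other at r = 0.0239, against 0.463 and 0.462 in pairs 2 and 3. In addition, 1 array of pair 2 carries another labelling date, and that array was left out in one of the alternatives. Values by pair or without pair 1 are given for the members and for the proteases and envelope genes named, except Ctsw.

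Stefins are small inhibitors that stay inside the cell, whereas most cystatins are secreted. Both block papain-like proteases, the cysteine cathepsins, by plugging the active site. Stefin A is built into the cornified envelope of the epidermis and is also made by myeloid cells, and in the mouse its gene is multiplied into a cluster. Stefin B guards the cytosol and nucleus against cathepsins that leak from lysosomes. Cystatin C is the general extracellular inhibitor. Cystatin M/E restrains legumain and cathepsin L in the upper epidermis, and mice that lack it develop a scaling skin disease.

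The stefin A cluster spans chr16:36119946-36455392 in the GRCm38.p6 RefSeq annotation and holds 12 protein-coding genes, of which 3 were measured. Stfa2l1 lies at 36156811 to 36161948, Csta2 at 36221562 to 36257447 and Stfa3 at 36450537 to 36455392. The 250 bases upstream of these genes' annotated starts are shown because these are the measured genes of the cluster: Stfa2l1 and Stfa3, which had high positive ratios, and Csta2, with a ratio near 0. Whether the windows bear on the ratios was not tested. Capitals mark the longest run of letters that the Stfa2l1 and Stfa3 windows share over their whole length and, in the last 50 bases, the longest run shared there. Sequences are from RefSeq, GRCm38.p6, 5′ to 3′ on the gene's strand.
Stfa2l1, plus strand, chr16:36156561-36156810: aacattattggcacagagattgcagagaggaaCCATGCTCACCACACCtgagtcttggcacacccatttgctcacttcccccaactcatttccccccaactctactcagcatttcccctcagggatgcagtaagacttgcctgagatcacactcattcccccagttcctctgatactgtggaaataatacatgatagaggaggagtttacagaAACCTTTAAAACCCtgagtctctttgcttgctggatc
Stfa3, minus strand, chr16:36455393-36455642: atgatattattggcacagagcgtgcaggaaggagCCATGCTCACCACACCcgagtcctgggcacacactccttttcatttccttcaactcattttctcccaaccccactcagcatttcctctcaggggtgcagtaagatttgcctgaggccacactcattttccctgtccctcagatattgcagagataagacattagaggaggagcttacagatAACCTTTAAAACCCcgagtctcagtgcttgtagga
Csta2, plus strand, chr16:36221312-36221561: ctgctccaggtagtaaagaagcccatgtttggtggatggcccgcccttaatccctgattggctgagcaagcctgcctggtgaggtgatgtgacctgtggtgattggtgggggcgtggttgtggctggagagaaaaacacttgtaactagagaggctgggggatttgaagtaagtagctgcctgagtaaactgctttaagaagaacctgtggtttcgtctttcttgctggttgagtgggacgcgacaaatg

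In a global alignment 206 of the 250 bases upstream of Stfa2l1 were identical in Stfa3 (82.4%), and 227 were identical in the window of Stfa2 (90.8%), a member not analysed here. Csta2 shared 128 bases with Stfa2l1 (51.2%) and 119 with Stfa3 (47.6%). Other cluster genes, with no ratio here, varied in likeness to Stfa2l1 and Stfa3. Stfa1 had 82.0% and 84.4%, Cstdc5 77.2% and 78.4%, and Csta1 51.2% and 52.4%. The likeness of Stfa2l1 and Stfa3 is thus shared with cluster genes whose ratios are not known. As a comparison outside the cluster, the window of Cst3 shared 118 bases (47.2%) with Stfa2l1 in the same kind of alignment. The 16-letter run, 218 bases before the start in Stfa2l1 and 216 in Stfa3, occurred on either strand in 2 of 32851 upstream windows of the same length, those of Stfa2l1 and Stfa3. The 14-letter run near the start, an A- and T-rich stretch 37 and 35 bases before it, occurred in 3 windows, those of Stfa2l1, Stfa3 and Stfa2. Both runs were picked because the Stfa2l1 and Stfa3 windows share them, so their presence in these windows was fixed by that choice. Runs of such length are rare among unrelated windows, and nothing is read from their rarity. The TATA box letters TATAAA (in 12.4% of all windows, both strands), the AP-1 letters TGANTCA (6.75%), the STAT letters TTCNNNGAA (7.02%) and the NF-kB consensus (3.90%) were in none of the 3 windows printed. The AP-1 and STAT letters read the same on both strands. These matches describe letters in a window and show no binding.

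Stfa2l1 had the highest ratio of the measured stefins and cystatins. The log2 ratio was 1.73 and 1.32 on the arrays of pair 1 (LynDN in Cy3, then in Cy5), 3.46 and 3.36 for pair 2, then 3.13 and 3.22 for pair 3. All 6 arrays were positive, and both arrays of pair 1 lay below the 4 others, with no overlap. The mean was 2.70 ± 1.03 (SD, n = 3 pairs), a difference of 6.51-fold, made up of 2.87-fold in pair 1 and 9.81-fold over pairs 2 and 3. It ranked 21 from the positive end of 22879 rows. Its SD over pairs was exceeded by 0.240% of all rows. The arrays of a dye swap differed by 0.41, 0.10 and 0.09 in pairs 1, 2 and 3, so little of the spread lay between dyes.

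Stfa3, at the other end of the cluster, showed log2 values of 0.28 and 1.80 for pair 1, 1.12 and 1.79 for pair 2, then 0.95 and 2.09 for pair 3, again with LynDN in Cy3 named before LynDN in Cy5. All arrays were positive. The 3 arrays with LynDN in Cy5 lay above the 3 with LynDN in Cy3, without overlap. The mean was 1.34 ± 0.26 (SD, n = 3 pairs), or 2.53-fold, at rank 74. In pair 1 it was 2.06-fold, and 2.80-fold over pairs 2 and 3. Stefin A genes are close paralogs, so how far each probe also reads RNA of other cluster members was not tested. Probe sequences were not used here.

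Cstb, the stefin expressed in most tissues, had smaller ratios on the same side. They were 0.26 and 0.12 for pair 1, 0.90 and 0.47 for pair 2, then 0.62 and 0.78 for pair 3. Pair 1 gave the lowest values on both dyes. The mean was 0.53 ± 0.29 (SD, n = 3 pairs), a 1.44-fold difference, with 1.14-fold in pair 1 and 1.62-fold over pairs 2 and 3. Cstb lies outside the cluster, at chr10:78425670-78427622.

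The secreted cystatins gave ratios close to 0 on either side. Cst3 (chr2:148871722-148875512) had 0.08 and -0.44 for pair 1, 0.23 and -0.73 for pair 2, then -0.19 and -0.17 for pair 3. The pair means were alike, at -0.20 ± 0.04 (SD, n = 3 pairs), while single arrays ranged from -0.73 to 0.23. The SD over pair means does not show the gaps between dyes. On the 3 arrays with LynDN in Cy3 the mean was 0.04, and on the 3 with LynDN in Cy5 it was -0.45. The arrays of a swap differed in sign in pairs 1 and 2, while both arrays of pair 3 were negative. Without the array of the other labelling date, which belongs to pair 2, the mean of Cst3 was -0.04. Cst6 (chr19:5344705-5349574) had -0.17 and 0.06 in pair 1, -0.15 on both arrays of pair 2, and 0.00 and 0.04 in pair 3. Its mean was -0.06 ± 0.09 (SD, n = 3 pairs), with 3 arrays on each side of 0.

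**Figure D1:**
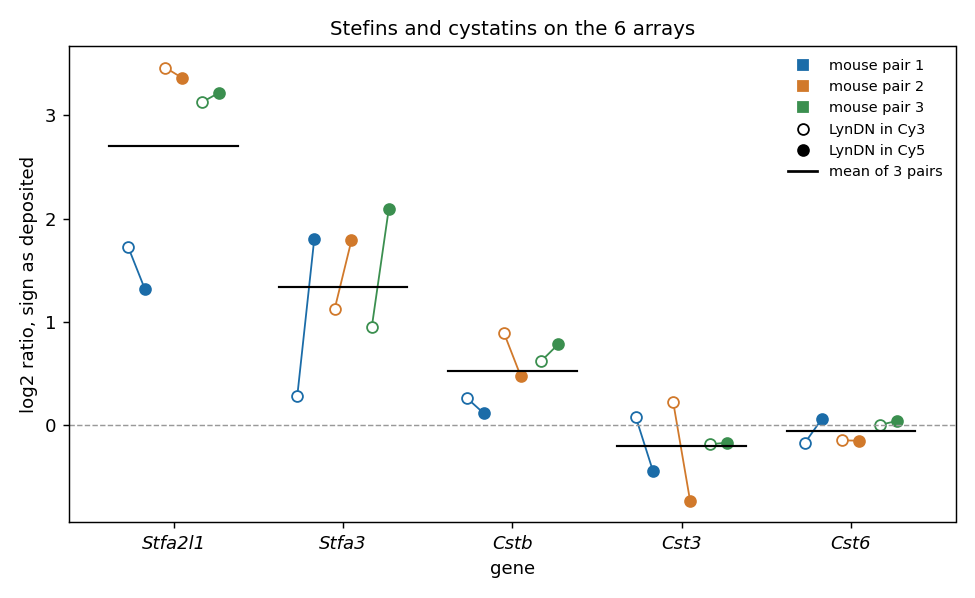
Log2 ratio (y axis, sign as deposited) of the 5 measured stefins and cystatins on each of the 6 arrays. Colours are mouse pairs, open circles arrays with LynDN in Cy3, filled circles arrays with LynDN in Cy5, thin lines join the arrays of a dye swap, and black bars are means of 3 pairs. Stfa2l1 separates by pair (1.32 to 1.73 in pair 1, 3.13 to 3.46 in the others), Stfa3 separates by dye, and Cst6 stays within 0.17 of 0.

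In the limma test on the 3 pair values over all 22879 rows, 0 of the 5 measured members passed at an adjusted p of 0.05, and 0.0175% of all rows did. At an unadjusted p under 0.05 there were 4 members, against 12.3% of all rows. With all 6 arrays fitted and the mouse pair as a block, Stfa2l1 and Stfa3 passed on the positive side, where 0.603% of rows did. That fit used 1 correlation for all rows, so its p is too small for Stfa2l1, which varied mostly between pairs. Stfa2l1 and Stfa3 also passed after quantile normalization, where 0.232% of rows passed as positive. Without pair 1, 3 members passed (Stfa2l1, Stfa3 and Cstb), where 3.22% of rows were called positive. A positive mean of at least 2-fold was reached by 2 members and 0.520% of rows, and positive ratios on all 6 arrays by 3 members and 3.72% of rows. The members were picked with this contrast known, so these counts are set beside the background and nothing is read from them. The median ratio of the 5 members was 0.53, against -0.01 over all rows.

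The effect of the dye is a measure that the choice of members did not use. For each pair it was taken as the array with LynDN in Cy5 minus that with LynDN in Cy3, divided by 2, and tested in the same way. Stfa3 had a dye difference of 0.55 ± 0.21 (SD, n = 3 pairs), positive in 3 of 3 pairs, and did not pass (limma, adjusted p = 0.0543). Only 0.411% of rows had a larger one. The gap between its dye-swap arrays was 1.52, 0.67 and 1.14 in pairs 1, 2 and 3, where the median gap over all rows was 0.193, 0.179 and 0.177. S100a9 and S100a8 had dye differences of similar size and the same sign, 0.53 ± 0.20 and 0.49 ± 0.13 (SD, n = 3 pairs), with limma adjusted p of 0.0543 and 0.0410. For Cst3 the dye difference was -0.24 ± 0.24 (limma, adjusted p = 0.212), with gaps of 0.515, 0.958 and 0.017 by pair. Stfa2l1, Cstb and Cst6 had -0.07, -0.07 and 0.04.

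Of the 5 members, 0 passed for the dye, against 0.573% of rows (131), and 2 had an unadjusted p under 0.05, Stfa3 and Cst3, against 21.4% of rows. Without pair 1, pair 2 or pair 3 the number of rows called for the dye was 7, 21 and 49, and no member was among them. The average over a dye swap takes a constant dye effect out of the ratio of Stfa3. What causes the difference between dyes was not tested.

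**Figure D2:**
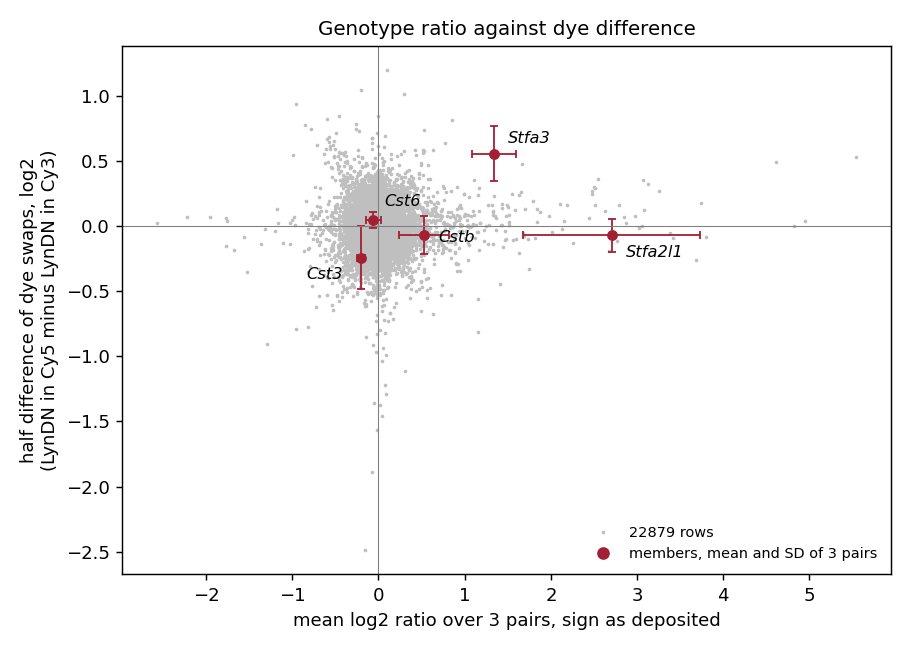
Mean log2 ratio over 3 pairs (x axis, sign as deposited) against the dye difference of dye swaps (y axis, log2, LynDN in Cy5 minus LynDN in Cy3, divided by 2). Grey points are all 22879 rows, and red points are the 5 measured members with the SD over 3 pairs as bars. Stfa2l1 lies far to the right near 0 on the dye axis (2.70 and -0.07), and Stfa3 lies above the bulk of rows (1.34 and 0.55).

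Other genes of the family lay mostly near 0. In the stefin A cluster Csta2, the only measured gene there that is no member, had -0.21 and 0.19 for pair 1, 0.07 and 0.38 for pair 2, then 0.08 and 0.06 for pair 3, with a mean of 0.09 ± 0.12 (SD, n = 3 pairs). A high ratio was thus not found for every measured gene of the cluster. Csta2 was read by 1 probe, and whether its signal lay above background could not be examined from ratios. Of 14 further genes of the stefin, cystatin, kininogen and fetuin families, 13 had a positive mean, 0 passed the limma test and the block fit, and 12 lay within 0.25 of 0. Their median was 0.04. Of all 22879 rows, 10035 had a positive mean.

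Fetub, which encodes a fetuin secreted by the liver that inhibits the egg-coat protease ovastacin, was the largest of these. It had 1.38 and 1.30 for pair 1, 0.97 and 1.23 for pair 2, then 0.23 and 0.28 for pair 3 (mean 0.90 ± 0.57, SD, n = 3 pairs). Pair 1 was its highest, whereas pair 1 was the lowest for the stefins. Cst9 had 0.49 ± 0.30, the kininogen gene Kng2 had 0.20 ± 0.25, and leukocystatin (Cst7), made by immune cells, had 0.11 ± 0.05 (SD, n = 3 pairs). Calpastatin (Cast), the inhibitor of calpains, had 0.33 ± 0.05 and was positive on 6 of 6 arrays. Among the cysteine protease inhibitors outside the family, Cast passed with the pair as a block (limma, adjusted p = 0.0422) and not on the pair values (adjusted p = 0.237). Ctla2a, an inhibitor that resembles the propeptide of cathepsin L, had 0.22 ± 0.26 (SD, n = 3 pairs).

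Among the proteases that this family blocks, a list of cysteine cathepsins with legumain was examined, and 11 of its 11 genes were measured. Of these, 7 had a positive and 4 a negative mean, against 10035 positive and 12843 negative among all 22879 rows. Their median was 0.11 (0.00, 0.13 and 0.19 in pairs 1, 2 and 3). In limma 0 passed on the pair values or with the block, and 5 had an unadjusted p under 0.05, against 12.3% of all rows. Without pair 1, 4 passed, all positive (Ctsc, Ctsh, Ctsl and Ctss), where 3.22% of rows were called positive. Cathepsin S (Ctss), the antigen-processing protease of macrophages and dendritic cells, had -0.20 and 0.09 for pair 1, 1.06 and 1.0 for pair 2, then 1.74 and 1.57 for pair 3. Its mean of 0.88 ± 0.87 (SD, n = 3 pairs) thus came from pairs 2 and 3. Cathepsin L (Ctsl) had 0.29 and -0.05, 1.07 and 0.36, and 0.91 and 0.77 in the same order, with a mean of 0.56 ± 0.39. Without pair 1 the means were 1.34 for Ctss and 0.78 for Ctsl.

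Legumain (Lgmn), an asparaginyl protease, had 0.42 ± 0.37 (SD, n = 3 pairs), and 0.59 without pair 1. Cathepsin H (Ctsh) had 0.29 ± 0.25, with 0.00 in pair 1 and 0.43 over the others. Cathepsin C (Ctsc), which activates the serine proteases of neutrophil granules, had 0.28 ± 0.27, with -0.03 in pair 1 and 0.44 over the others. The mean of Ctsc turned in sign with the dye, at -0.03 with LynDN in Cy3 and 0.59 with LynDN in Cy5. Its dye difference was 0.31 ± 0.05 (SD, n = 3 pairs) and did not pass (limma, adjusted p = 0.0552). Cathepsin W (Ctsw), a protease of cytotoxic lymphocytes, had -0.26 ± 0.08 and was negative on 6 of 6 arrays. In the list built around Cst6, Cst6 itself lay at -0.06. Its known targets Ctsl and Lgmn had 0.56 and 0.42, with 0.12 and 0.07 in pair 1. Whether these ratios are linked to each other, or to those of the envelope genes that follow, was not tested. The envelope cross-linking enzymes Tgm3 and Tgm1 gave 0.93 and 0.76, and 1.24 and 1.09 without pair 1. The envelope genes Flg and Lor had -2.23 ± 0.86 and -1.67 ± 0.45 (SD, n = 3 pairs), and -2.71 and -1.92 without pair 1. Of these 7 genes 0 passed on the pair values, and 6 had an unadjusted p under 0.05, against 12.3% of all rows. With the block 2 passed on the negative side, Flg and Lor, where 0.459% of rows did.

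**Figure D3:**
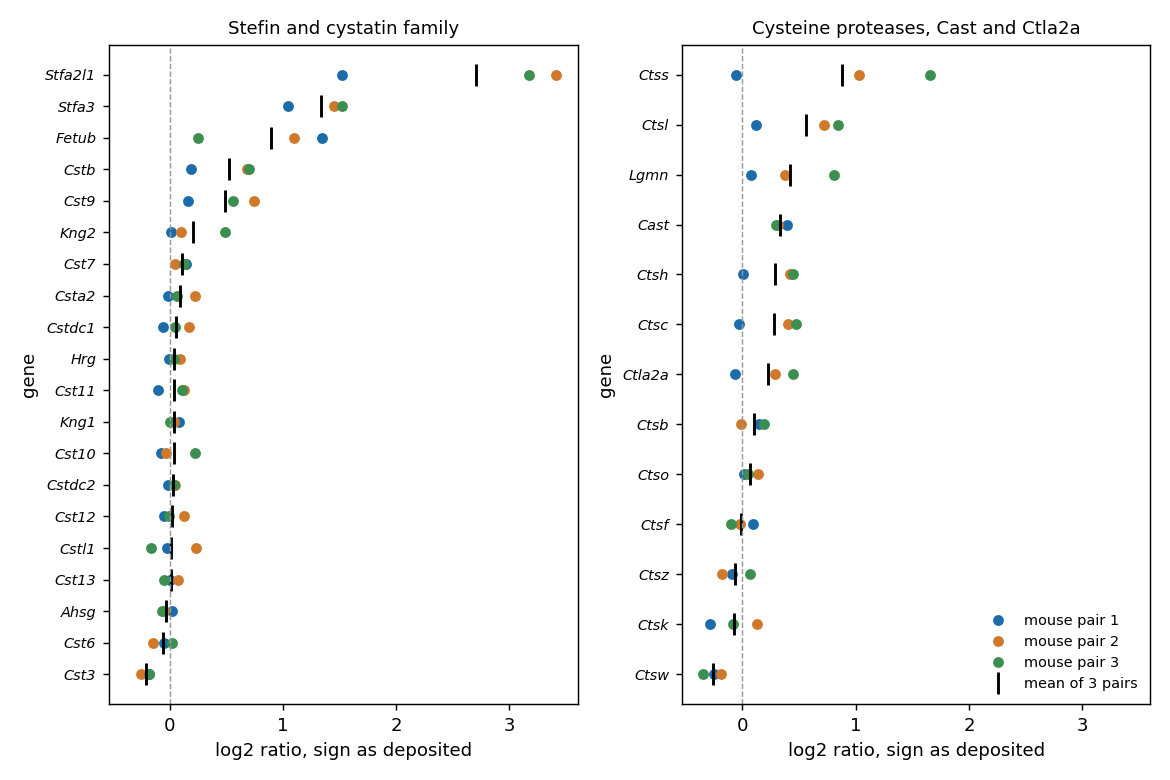
Log2 ratio (x axis, sign as deposited) of the measured genes of the stefin and cystatin family (left) and of 11 cysteine proteases with Cast and Ctla2a (right). Coloured points are the 3 mouse pairs and black ticks their means. Stfa2l1 and Stfa3 have means of 2.70 and 1.34, most of the family lies near 0, and for Ctss and Ctsl pair 1 lies near 0 (-0.06 and 0.12) below pairs 2 and 3.

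The stefins were lowest in pair 1, as were several cell type marker lists, while the order of pairs 2 and 3 varied. Stfa2l1, Stfa3 and Cstb had 1.52, 1.04 and 0.19 in pair 1, against 3.41, 1.45 and 0.68 in pair 2 and 3.18, 1.52 and 0.70 in pair 3. Pair 1 was the lowest of the 3 pairs for 10 of 12 measured neutrophil markers and for 8 of 10 macrophage and monocyte markers. Taken over pairs 1, 2 and 3, the neutrophil list had medians of 0.14, 0.52 and 0.43, against -0.03, 0.42 and 0.70 in the macrophage and monocyte list. Means in the neutrophil list ran from -0.22 (Itgam) to 2.48 (Retnlg), with a median of 0.38. Retnlg, the extreme of that list and not typical of it, had 0.41, 3.70 and 3.33 by pair. Mast cell markers (5 measured) had medians of -0.11, 0.58 and 0.55, and Langerhans and dendritic cell markers (7 measured) had 0.08, 0.19 and 0.13. Pair 1 was lowest for 4 of these 5 mast cell markers and for 3 of the 7 Langerhans and dendritic cell markers. The share of all rows lowest in pair 1 was not computed. No background thus stands beside these counts or the keratinocyte counts below.

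Both keratinocyte lists had their median nearest to 0 in pair 1, on the positive side for basal and on the negative side for suprabasal markers. The 6 basal keratinocyte markers had medians of 0.23, 0.57 and 0.48, and all 6 were lowest in pair 1. The 5 measured suprabasal markers, all with a negative mean, had medians of -0.46, -1.80 and -2.05, highest in pair 1, and 0 of them were lowest there. In whole skin, fewer cells of a type and less RNA per cell cannot be told apart, and the part of myeloid cells or keratinocytes in the stefin ratios was not tested.

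**Figure D4:**
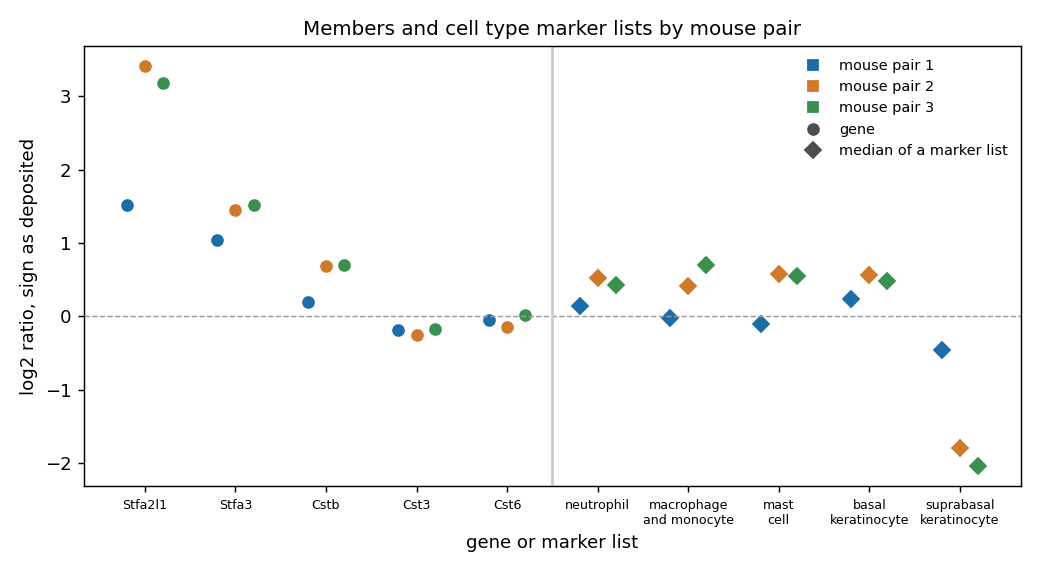
Log2 ratio (y axis, sign as deposited) in each mouse pair for the 5 measured members (circles) and the median of 5 cell type marker lists (diamonds). The Langerhans and dendritic cell list is not drawn. Pair 1 (blue) is lowest for Stfa2l1, Stfa3 and Cstb, at 1.52, 1.04 and 0.19, and also for the neutrophil, macrophage, mast cell and basal keratinocyte medians.

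The genes closest to the averaged profile of Stfa2l1 and Stfa3 over the 6 arrays were sought among 18615 named genes by root mean square distance on the log2 scale. The profile had 1.28, 2.43 and 2.35 in pairs 1, 2 and 3. It is a midpoint of unlike genes, Stfa2l1 with 1.52, 3.41 and 3.18 and Stfa3 with 1.04, 1.45 and 1.52. Nearness to this midpoint is thus not nearness to either gene. The nearest was the cadherin gene Cdh7, with 1.11, 2.66 and 2.79 at a distance of 0.32. It was followed by Lce3c, a late cornified envelope gene (0.33), Il1f9, the cytokine gene Il36g (0.34), and the peroxidase gene Lpo (0.39). Zc3h12a, an RNase that degrades cytokine transcripts, lay at 0.39 and 2610528A11Rik at 0.40. Each of these 6 genes was positive in all 3 pairs, with its lowest value in pair 1, which follows largely from their choice by nearness. Likeness over 6 arrays from 3 mouse pairs is a description and was not tested.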

How the data were processed

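Each deposited value is a log2 ratio of the 2 channels of 1 array at 1 probe, with the log base assumed because it is not stated. The scanner, background correction and normalization used by the authors are not stated in the sources used here. Column medians lay between -0.02 and 0.00. The number of arrays limits the precision. Of 25344 probes, 21082 had 1 gene symbol in the platform annotation. They were averaged per symbol, and the others (30 with several symbols, 4232 with none) stayed as rows of their own, which left 22879 rows. Identifiers were matched to the GRCm38.p6 RefSeq table, and 0 symbols changed. Dye-swap arrays hold the same 2 RNAs per the labels, which is where the pairing comes from, and were averaged per mouse pair. Whether the 3 pair values differ from 0 was tested by lmFit and eBayes (limma 3.58.1, R 4.3.3), with Benjamini-Hochberg adjustment over all rows and a threshold of 0.05. The block fit used duplicateCorrelation (correlation 0.151) with a dye term. This correlation was shared by all rows, so its p is too small for rows that vary mostly between pairs. Fits were tested on simulated data. Upstream windows were aligned with Biopython 1.88. The members and all gene lists were chosen with earlier results of these data known. Genes beyond the members were named as up to 6 per list with the largest absolute mean ratio. Others named were the 6 nearest to the averaged profile of Stfa2l1 and Stfa3, with S100a8, S100a9, Eif2s3y, Kdm5d and Xist. Retnlg and Itgam were named as the highest and lowest of the neutrophil list. Figures were drawn with matplotlib 3.10.9.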

Additional observations from a re-analysis of the deposited data

How the results depend on the processing

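With the mouse pair as a replicate block, 243 rows and 2 stefins passed, and with quantile normalization 72 rows and 2 stefins, against 4 rows and 0 members on the pair values. Leaving out each pair gave from 2 to 1117 rows, from 0 to 3 members and from 0 to 4 cysteine proteases, each highest without pair 1. Median centring, single probes as rows and robust moderation called 0 members. For the dye difference 131 rows passed, 234 with single probes as rows, and from 7 to 49 with a pair left out. Of 50 alternative values of the members' mean ratios, 45 moved by less than the SD over pairs and 1 turned in sign (Cst3 with LynDN in Cy3, 0.04). The block fit and the median over probes return the same mean for these members of 1 probe each. Leaving out 1 of 3 pairs cannot move a mean by as much as the SD. Many of the 45 were thus fixed in advance, and the count is no measure of stability. The cause of these changes was not tested. Signal over background and saturation could not be examined from ratios.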
